A study of Mus musculus with 18 samples.

Results

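The sequences described here are 240 of the 65530 8-base sequences (8-mers) in a z-score table of 18 protein binding microarrays. They hold the C/EBP half-site GCAA directly after a cytosine, as CGCAA, on the strand that was never modified, and the complementary TTGCG on the strand that carried the modified base. They were chosen by sequence alone. The reverse complement had to contain CGCAA and the 8-mer itself not, and 15 of the 255 possible 8-mers were left out because they share 7 bases in a row with the CRE and C/EBP chimera (TGAC joined to GCAA through the CpG) or with the C/EBP palindrome. All 240 were in the table and all were tested. The arrays measured the DNA-binding domains of 3 mouse proteins, CREB1, ATF1 and JUND, each fused to glutathione S-transferase and made in a cell-free reaction. Each protein was applied to probes whose second strand had been synthesized with 5-methylcytosine (5mC), with 5-hydroxymethylcytosine (5hmC) or with ordinary cytosine (C), which makes 9 groups of 2 arrays. With 5mC or 5hmC, every cytosine of the synthesized strand carried the modification and every cytosine of the printed strand was unmodified, so that no CpG was modified on both strands. Nothing in the labels ties replicate arrays to separate protein preparations. The p-values therefore reflect the array-to-array spread alone, and that spread may be technical.

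CREB1, ATF1 and JUND are basic leucine zipper (bZIP) proteins, which bind DNA as dimers, each subunit reading one half-site in the major groove. CREB1 and ATF1 are close relatives that bind the cAMP response element (CRE), whose palindrome tgacgtca has the CpG at its centre. JUND belongs to the AP-1 family, whose site lacks that CpG. GCAA is the half-site that C/EBP proteins, another bZIP family, recognise, and a cytosine in front of it makes a CpG that can be methylated. The series title asks about CREB1 at GCAA, and for the 240 sequences the question is what happens when the modified cytosine lies on the strand opposite GCAA, paired with its G.

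The sequences below are those on which the results turn. At the first 4 CREB1 z-scores fell with both modifications, the next had the largest rise, and the last had no difference past the test while its reverse complement was among the highest on 5mC DNA. Each site is called by the letters of its unmodified strand. Each is written 5′ to 3′ as it reads on the modified strand, with TTGCG in capitals, followed by its reverse complement on the unmodified strand, with CGCAA in capitals.
TACGCAAT site, modified strand: aTTGCGta
TACGCAAT site, unmodified strand: taCGCAAt
TTACGCAA site, modified strand: TTGCGtaa
TTACGCAA site, unmodified strand: ttaCGCAA
ACGCAATA site, modified strand: taTTGCGt
ACGCAATA site, unmodified strand: aCGCAAta
CACGCAAT site, modified strand: aTTGCGtg
CACGCAAT site, unmodified strand: caCGCAAt
CTCGCAAT site, modified strand: aTTGCGag
CTCGCAAT site, unmodified strand: ctCGCAAt
CGCAATAC site, modified strand: gtaTTGCG
CGCAATAC site, unmodified strand: CGCAAtac
The site looks the same in every probe, but its surroundings do not. These 3 probes, written as their printed, unmodified strand, carry 3 of these sites, whose 8 bases are in capitals. Each is the probe of middle rank on the unmodified CREB1 arrays among the probes with that sequence, picked after the values were seen.
Probe with the TACGCAAT site: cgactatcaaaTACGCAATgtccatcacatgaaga
Probe with the CACGCAAT site: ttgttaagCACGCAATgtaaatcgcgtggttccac
Probe with the CTCGCAAT site: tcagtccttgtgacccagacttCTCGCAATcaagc

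A z-score is read here as how far the probes with an 8-mer lay above or below the rest of that array. Its median over all 8-mers was near 0 on every array. The z-score of an 8-mer ranked with the signal of the probes whose synthesized strand holds it (Spearman rho between 0.957 and 0.975 on every array), so the written 8-mer is the modified strand. Each of the 240 sequences was carried by 9 to 30 probes (median 17). They shared these probes: 1232 distinct probes carried all of them, with up to 8 sequences on a probe and 4 in the median, so the sequences are not independent of each other. Of the 1232 probes, 200 also held a CRE-like word (ACGT or TGACG). Array brightness differed, with a median signal between 519 (JUND 5hmC replicate 2) and 8014 (JUND 5mC replicate 1). Across the 240 sequences the z-scores of replicate arrays correlated with Pearson r of 0.654 for CREB1 with 5mC, 0.710 with 5hmC and 0.927 with C. For ATF1 these were 0.800, 0.347 and 0.895, and for JUND 0.616, 0.496 and 0.540. These correlations are across sequences that share probes and are given as a description. On these scales most of the sequences were weak sites. The CRE palindrome tgacgtca had a CREB1 z-score of 22.8 ± 15.3 with 5mC, 36.2 ± 12.3 with 5hmC and 165 ± 39.97 with C (SD, n = 2 arrays each), whereas the median over the 240 sequences was 0.61 and 0.70 on the 5mC arrays, 0.39 and 0.49 on the 5hmC arrays and 0.53 and 0.89 on the C arrays.

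Fewer of the sequences had high CREB1 and ATF1 values on modified DNA. A z-score of 4 or more was reached by 4 and 10 of the 240 sequences on the CREB1 5mC arrays, by 2 and 1 on the 5hmC arrays and by 21 and 32 on the C arrays. For ATF1 the counts were 2 and 2 with 5mC, 0 and 0 with 5hmC, and 21 and 19 with C. Over all tested 8-mers the share at 4 or more also was smaller on modified DNA. For CREB1 it was 2.53% and 1.96% with 5mC, 1.72% and 1.80% with 5hmC, and 4.25% and 5.99% with C, where the 240 sequences had 1.67% and 4.17% with 5mC, 0.833% and 0.417% with 5hmC, and 8.75% and 13.3% with C. For ATF1 the share over all tested 8-mers was 1.16% and 1.28% with 5mC, 0.564% and 0.462% with 5hmC, and 2.96% and 3.00% with C. The difference between the 240 sequences and all 8-mers was not tested. JUND had few high values on any DNA. They numbered 1 and 0 on the 5mC arrays, 0 and 0 on the 5hmC arrays and 2 and 0 on the C arrays. Its share over all tested 8-mers was 0.978% and 0.981% with 5mC, 0.564% and 1.25% with 5hmC, and 1.59% and 0.375% with C.

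With 5mC on the opposite strand, CREB1 fell at 37 of the 240 sequences and rose at 7. Over all tested 8-mers 6.21% fell and 2.25% rose. The falls were concentrated by sequence: 36 of the 37 have A before CGCAA on the unmodified strand, and the class ACGCAA has 40 members. In this class all 40 differences lay below 0, with a median of -3.23, against a median of -0.06 over all 8-mers and -0.06 over the 240 sequences. No sequence with C (48), G (40) or T (48) before CGCAA fell. These classes started lower on the unmodified CREB1 arrays. Their median z-scores there were -0.27 and -0.11 for CCGCAA, 0.19 and 1.22 for GCGCAA, and 0.28 and 0.49 for TCGCAA. For ACGCAA they were 3.76 and 4.64. The remaining fall was at acgTTGCG, in which the base before CGCAA lies outside the 8-mer and which is the one member that holds ACGT, the centre of the CRE. It had z-scores of 0.127 and 0.481 with 5mC and 3.87 and 3.90 with C (difference -3.58, adjusted p = 0.00247 in limma) and was named because it stood alone.

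The largest fall was at aTTGCGta, whose unmodified strand reads TACGCAAT. CREB1 had z-scores of 2.94 and 1.80 there with 5mC, 2.78 and 1.49 with 5hmC, and 14.2 and 28.5 with C. The modified arrays lay close together and far below both unmodified arrays, which themselves differed widely. The difference between 5mC and C was -19.00 ± 2.68 (SE; limma adjusted p = 4.98e-05). At TTGCGtaa the z-scores were 4.40 and 2.43 with 5mC, 4.10 and 2.59 with 5hmC, and 15.7 and 18.4 with C, a difference of -13.63 ± 1.68 for 5mC (limma adjusted p = 1.1e-05). At taTTGCGt they were 1.53 and 1.14 with 5mC, 2.13 and 1.26 with 5hmC, and 14.8 and 18.2 with C (-15.15 ± 1.29, limma adjusted p = 1.3e-07). These sequences were the highest of the 240 on unmodified DNA, and with 5mC all 3 still lay above the median of the 240. aTTGCGtg was lower on unmodified DNA than these, with 2.41 and 3.91 with 5mC, 4.19 and 3.44 with 5hmC, and 9.63 and 9.21 with C (-6.26 for 5mC, limma adjusted p = 0.000843). The same pattern held at gTTGCGta, which had 2.27 and 3.03 with 5mC and 9.42 and 18.5 with C (limma adjusted p = 0.000199), and at tgTTGCGt, which had 2.64 and 1.78 with 5mC and 6.57 and 4.87 with C (-3.51, limma adjusted p = 0.0146).

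The A before CGCAA went with the level on unmodified DNA as well. The median z-score of the 40 ACGCAA sequences was 0.94 and 1.05 on the CREB1 5mC arrays, 0.78 and 0.77 on the 5hmC arrays and 3.76 and 4.64 on the C arrays. In probe signal, relative to the array median, the class lay at 1.32 and 1.26 with 5mC, 1.22 and 1.13 with 5hmC, and 2.12 and 2.17 with C. There are 32 sets of 4 sequences that differ in this base alone. In these the A sequence had the highest CREB1 z-score in 4 and 2 sets on the 5mC arrays, 10 and 11 on the 5hmC arrays, and 28 and 29 on the C arrays. The G sequence was the highest in 13 and 18 sets on the 5mC arrays, 10 and 13 on the 5hmC arrays, and 3 and 3 on the C arrays. The T sequence was the highest in 15 and 11 sets on the 5mC arrays, 8 and 6 on the 5hmC arrays, and 1 and 0 on the C arrays. The lead of A was thus seen on unmodified DNA, while on 5mC DNA G or T led in most sets. The ranking on 5mC DNA was among low z-scores, with class medians of 0.91 and 1.37 for G and 1.31 and 0.83 for T. For ATF1 A was the highest in 5 and 2 sets with 5mC and in 28 and 28 with C. For JUND these numbers were 3 and 6 with 5mC and 11 and 3 with C. There are 27 ACGCAA sequences with a single cytosine on the modified strand, the one opposite the G of GCAA, and 24 of them fell with 5mC and 18 with 5hmC. Their probes still carried modified cytosines outside the 8 bases.

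The base further out, chosen for description after the values were seen, went with the size of the fall. With T there (TACGCAA) 8 of 8 sequences fell with 5mC, with a median difference of -8.19 and median unmodified z-scores of 7.77 and 13.2. With C there (CACGCAA) 5 of 8 fell (median -2.85, unmodified medians 3.81 and 4.24). With A there (AACGCAA) 7 of 8 fell (median -2.12, unmodified medians 1.66 and 2.32). G there does not occur, because GACGCAA is 7 bases of the chimera and was left out. In the remaining 16 ACGCAA sequences that base lies outside the 8-mer, and all 16 fell. The base after CGCAA went less clearly with the result: with T there (CGCAAT) 4 of 46 rose and 7 fell, and with another base 2 of 138 rose and 20 fell.

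The count of falls depended on the arrays and on the scaling. Over all tested 8-mers the falls of CREB1 with 5mC numbered 4041, and 1167 with quantile normalization. Leaving out an array in turn left 24 to 32 falls among the 40 ACGCAA sequences, with 24 without CREB1 5mC replicate 1 and 25 without CREB1 C replicate 2, and quantile normalization of the z-scores left 8, while all 40 differences stayed below 0 under each of these. Of the falls described above, those at aTTGCGta and taTTGCGt were called under every alternative. Those at TTGCGtaa, gTTGCGta and aTTGCGtg were called without any one array but lost under at least 1 other setting. That at tgTTGCGt was lost under at least 1 other setting and also without at least 1 array.

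The 7 rises of CREB1 with 5mC were 2.92% of the 240 sequences, near the 2.25% of all tested 8-mers that rose. Of these 7, 5 belong to the class TCGCAA, and in the other 2 the base before CGCAA lies outside the 8-mer. The largest was at aTTGCGag, with z-scores of 4.00 and 7.04 with 5mC, 0.796 and 0.110 with 5hmC, and -0.0442 and 0.562 with C (5.26 ± 1.40 for 5mC, limma adjusted p = 0.0196). Next were ccaTTGCG, with 3.32 and 8.12 with 5mC and 0.810 and 1.67 with C (4.48 ± 1.13, limma adjusted p = 0.0133), and taTTGCGa, with 2.33 and 4.60 with 5mC and -0.0442 and 0.277 with C (3.35, limma adjusted p = 0.00686). In all 3 the second 5mC array was the higher one. The other 4, at caaTTGCG, gcTTGCGa, TTGCGatg and tTTGCGat, were differences of 1.83 to 2.70. Over the 48 TCGCAA sequences the median difference was 0.48. Without CREB1 C replicate 1, 0 of the 5 TCGCAA rises were called, and without CREB1 C replicate 2, 2 sequences of this class were. The rises over all 240 sequences numbered 0 and 3 without these arrays, 11 without CREB1 5mC replicate 1 and 5 without CREB1 5mC replicate 2. With quantile normalization they numbered 2, and the rises over all tested 8-mers numbered 870, against 1462 without it.

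None of the 5 sequences with the highest mean CREB1 z-score on 5mC DNA was among the 5 highest on C. TTGCGacg had CREB1 z-scores of 5.57 and 6.19 with 5mC, 3.24 and 4.67 with 5hmC, and 2.76 and 6.68 with C, with no difference past the test between 5mC and C (1.16, limma adjusted p = 0.679). gcaTTGCG had 5.65 and 3.07 with 5mC, 1.88 and 2.31 with 5hmC, and 5.24 and 5.73 with C. The highest z-score among the 240 sequences was 5.65 and 8.12 on the CREB1 5mC arrays, and among their reverse complements it was 128 and 60.1.

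With 5hmC, CREB1 fell at 34 sequences and rose at 2, against 6.78% and 1.12% of all tested 8-mers. Again the falls lay mostly in ACGCAA, with 29 of 40 called, all 40 differences below 0 and a median of -3.67. At the first 3 printed sequences the 5hmC differences were close to those of 5mC, with -19.24 at aTTGCGta (limma adjusted p = 4.54e-05), -13.70 at TTGCGtaa (9.99e-06) and -14.79 at taTTGCGt (1.63e-07). TTGCGtag had -0.528 and 0.724 with 5hmC, 1.34 and 2.46 with 5mC, and 8.59 and 14.8 with C (-11.62 for 5hmC, limma adjusted p = 4.16e-06). Outside ACGCAA, 5 sequences fell: tatTTGCG, tcaTTGCG, and acgTTGCG, gTTGCGcg and TTGCGcgt, each of which has a second CpG. At tcaTTGCG the z-scores were 1.90 and 0.110 with 5hmC, 3.29 and 5.97 with 5mC, and 4.43 and 6.57 with C (-4.50 for 5hmC, limma adjusted p = 0.0148). The 2 rises, at TTGCGgtc (1.81, limma adjusted p = 0.0241) and TTGCGgtt (1.63, limma adjusted p = 0.0348), have C before CGCAA and stayed at z-scores of 0.973 to 1.91 with 5hmC. Quantile normalization left 11 of the 29 falls in ACGCAA. The falls over all tested 8-mers then numbered 1392, against 4412 without it.

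Between the modifications CREB1 differed at 4 sequences, 1 higher with 5hmC and 3 lower, against 0.186% and 0.766% of all tested 8-mers. Both of the modified groups enter this comparison and the preceding ones, so the 3 comparisons share arrays. The lower ones were ccaTTGCG (-4.81, limma adjusted p = 0.0448), tcgTTGCG, with -0.513 and 0.267 with 5hmC and 2.46 and 5.18 with 5mC (-3.94, limma adjusted p = 0.0159), and cgTTGCGa (-2.97, limma adjusted p = 0.0297). The higher one was TTGCGgtt, with 1.91 and 0.973 with 5hmC and -0.500 and -0.571 with 5mC (1.98, limma adjusted p = 0.0478). None of the 4 is an ACGCAA sequence. Without CREB1 5mC replicate 2, and without either 5hmC array, 0 sequences were called.

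ATF1 fell in the same class of sequences as CREB1. With 5mC it fell at 18 sequences and rose at 2, against 2.06% and 1.19% of all tested 8-mers, and 16 of the 18 falls were in ACGCAA, where all 40 differences lay below 0 (median -3.13). With 5hmC it fell at 19 and rose at 0, against 2.08% and 0.0998%, with 18 of the falls in ACGCAA and again all 40 below 0 (median -3.14). The median z-score of the class was 0.55 and 0.40 on the 5mC arrays, 0.40 and 0.50 on the 5hmC arrays and 2.97 and 3.17 on the C arrays. At taTTGCGt ATF1 had z-scores of 1.27 and 1.57 with 5mC, 1.58 and 1.05 with 5hmC, and 8.96 and 10.7 with C (-8.42 for 5mC, limma adjusted p = 0.00251, and -8.53 for 5hmC, limma adjusted p = 0.00217). At TTGCGtaa it had 2.82 and 0.717 with 5mC, 2.25 and 2.33 with 5hmC, and 13.7 and 9.60 with C (-9.89 for 5mC, limma adjusted p = 0.00454). The modified arrays lay below both unmodified arrays at each of these sites. At aTTGCGta it had 1.25 and 1.91 with 5mC, 1.01 and 0.556 with 5hmC, and 11.2 and 11.1 with C, and the difference was -9.58 for 5mC, which did not pass the test (limma adjusted p = 0.0541), and -10.38 for 5hmC (limma adjusted p = 0.046). The falls outside the class were acgTTGCG with both modifications and ggaTTGCG with 5mC.

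The 2 rises of ATF1 with 5mC were at caaTTGCG, which had 1.28 and 1.94 with 5mC and -0.120 and -1.13 with C (2.24, limma adjusted p = 0.0455), and at TTGCGatc, which had 1.52 and 2.84 with 5mC and 0.322 and -0.388 with C (2.21, limma adjusted p = 0.0459). caaTTGCG also rose for CREB1 with 5mC (1.95, limma adjusted p = 0.0478). Between 5hmC and 5mC ATF1 differed at 1 sequence, ctTTGCGc, which was lower with 5hmC (-3.11, limma adjusted p = 0.0244), where 0.591% of all 8-mers were lower and 0.134% higher. The ATF1 counts dropped when any of these arrays was left out: without ATF1 C replicate 1 or 2 the falls in ACGCAA numbered 5 and 5 for 5mC and 5 and 6 for 5hmC. Without ATF1 5mC replicate 1 or 2 they numbered 3 and 0, and without ATF1 5hmC replicate 1 or 2 they numbered 2 and 4.

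For JUND 1 change of a sequence's own z-score passed the test. With 5mC 1 sequence fell and 0 rose, against 0.244% and 0.799% of all tested 8-mers. The fall was at cttTTGCG, with z-scores of -0.419 and -1.003 with 5mC and 2.32 and 0.893 with C (-2.32, limma adjusted p = 0.0473). With 5hmC limma called 0 sequences, as it called 0% of all tested 8-mers in either direction. An unadjusted p under 0.05 was reached by 13 of the 240 sequences and by 6123 of all 65121 tested 8-mers. In ACGCAA the median z-score of JUND was -0.31 and -0.13 with 5mC and 0.51 and -0.21 with C, so the class had no raised level on unmodified DNA. The highest JUND values were at tcaTTGCG on C (4.70 and 3.14) and at aTTGCGag on 5mC, where the arrays differed most (6.11 and 0.665).

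A test of the difference between the effects of CREB1 and ATF1 called 0 of the 240 sequences for either modification in limma, where 0.272% of all tested 8-mers were called for 5mC and 0.215% for 5hmC. An unadjusted p under 0.05 was reached by 11 sequences in each. Of all 65121 tested 8-mers it was reached by 3513 for 5mC and 3530 for 5hmC. Leaving out CREB1 C replicate 1 raised both counts to 10, all with the larger fall for CREB1, and leaving out any other array of these groups gave 0.

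The same double-stranded site can be compared in its 2 orientations, because each is a separate set of probes and only the synthesized strand is modified. In the members the modified base lies opposite GCAA, and in their reverse complements the strand that reads CGCAA is modified. CGCAA holds 2 cytosines and TTGCG a single one, so the orientations also differ in the number of modified bases. The member was below its reverse complement in 145 and 119 of 240 pairs on the CREB1 C arrays, against 240 and 230 pairs on the 5mC arrays and 215 and 201 on the 5hmC arrays. For ATF1 the counts were 230 and 228 with 5mC, 181 and 184 with 5hmC, and 134 and 115 with C. For JUND they were 200 and 201 with 5mC, 138 and 128 with 5hmC, and 128 and 146 with C, so that the member was the lower orientation more often with 5mC here as well. The change of this difference was not tested for JUND. Pearson r across the pairs was 0.283 and 0.346 on the CREB1 5mC arrays, 0.477 and 0.314 on the 5hmC arrays and 0.765 and 0.837 on the C arrays, over 240 pairs that share probes.

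The difference between member and reverse complement was lower with 5mC than with C for CREB1 in 200 of 240 pairs and higher in 0, where limma called 5.05% of all pairs in either direction. The median change of this difference was -9.41. By the base before CGCAA the test called 37 of 40 pairs with A (median -26.33), 39 of 48 with C, 35 of 40 with G and 36 of 48 with T, so it was not limited to the class in which the members themselves fell. With T after CGCAA it called 44 of 46 pairs (median -19.47). The reverse complements alone rose at 221 of 240 with 5mC, with a median difference of 9.09, where the members had a median of -0.06. A z-score of 4 or more was reached on the CREB1 5mC arrays by 4 and 10 members and by 213 and 173 reverse complements, and on the C arrays by 21 and 32 members and by 31 and 33 reverse complements.

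At aTTGCGtg the z-scores of the member with 5mC were 2.41 and 3.91 and those of its reverse complement caCGCAAt were 99.4 and 49.2. On unmodified DNA the member had 9.63 and 9.21 and the reverse complement 7.64 and 12.9. The change of the difference was -70.30 ± 15.03 (limma adjusted p = 0.00957), with the member lower and the reverse complement higher on 5mC DNA. At gaTTGCGt the member had 2.55 and 1.60 with 5mC and 7.80 and 16.8 with C, and its reverse complement 80.4 and 43.5 with 5mC and 8.41 and 11.9 with C (-61.99, limma adjusted p = 0.000134). At gtaTTGCG the member did not differ past the test, with 1.35 and 2.94 with 5mC and 1.74 and 1.87 with C (0.34, limma adjusted p = 0.87). Its reverse complement had 99.6 and 44.2 with 5mC and 5.64 and 8.50 with C (-64.51 for the difference, limma adjusted p = 0.0316). The largest differences did not all pass the test. At taTTGCGt the reverse complement had 126 and 50.0 with 5mC and 11.4 and 19.0 with C, and the change of -87.86 had a limma adjusted p of 0.718.

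With 5hmC fewer pairs passed the test, and 5hmC was not tested against 5mC for this difference. For CREB1 8 of 240 pairs were called, all lower, against 4.25% of all pairs, with 209 of the 240 changes below 0 and a median of -1.53. The called pairs included gaTTGCGt (-35.30, limma adjusted p = 0.0179), where the reverse complement had 28.7 and 43.2 with 5hmC, and tgTTGCGt (-12.79, limma adjusted p = 0.012). Without CREB1 C replicate 2, 0 pairs were called, and without any of the other 3 arrays 1 to 4 were. For ATF1 with 5mC 69 pairs were called, all lower (median -5.05, against 2.02% of all pairs), among them aTTGCGgg (-22.00, limma adjusted p = 0.0311) and gcaTTGCG (-16.04, limma adjusted p = 0.0477). Leaving out an array left 11 to 25 of these, with 11 without ATF1 5mC replicate 2, 25 without ATF1 5mC replicate 1, and 17 without either C array. For ATF1 with 5hmC limma called 0 pairs, against 0.239% of all pairs. An unadjusted p under 0.05 was reached by 7 of the 240 pairs and by 2997 of all 32225 pairs.

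The single probes that carry 3 of the sequences went both ways. Of the 20 probes with aTTGCGta, 17 were dimmer relative to the array median with 5mC than with C for CREB1, and 18 with 5hmC. The probe printed above had 2.81 and 1.75 times the array median with 5mC, 1.86 and 1.57 with 5hmC, and 4.25 and 9.35 with C. Of the 15 probes with aTTGCGtg, 12 were dimmer with 5mC and 13 with 5hmC, and the printed one had 1.41 and 1.96 with 5mC, 0.693 and 1.09 with 5hmC, and 4.02 and 3.24 with C. Probes of one sequence are no replicates of a condition, and these counts are a description. For ATF1 the dimmer probes were 18 of 20 with 5mC and 19 with 5hmC at aTTGCGta, and 10 of 15 with 5mC and 15 with 5hmC at aTTGCGtg. For aTTGCGag 13 of 18 probes were brighter with 5mC and 10 with 5hmC for CREB1, and 9 with 5mC and 5 with 5hmC for ATF1. The printed probe of middle rank was dimmer with 5mC, with 0.622 and 0.792 with 5mC and 0.957 and 1.19 with C. None of these 3 probes holds a CRE-like word. With all probes that hold one left out, an alternative chosen after seeing the data and run on log2 signal, the falls in ACGCAA numbered 18 for CREB1 with 5mC, 15 for CREB1 with 5hmC, 5 for ATF1 with 5mC and 4 for ATF1 with 5hmC. On log2 signal with all probes they numbered 28 and 25 for CREB1 and 19 and 19 for ATF1.

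A further list holds the half-site on the unmodified strand with no cytosine directly before it within the 8-mer. It is called the half-site after another base here, and within the 8 bases it has no CpG at that place. Where the half-site opens the unmodified strand of the 8-mer, the base before it lies outside and can be a cytosine. Of 973 tested 8-mers of this kind, CREB1 rose at 48 (4.93%) and fell at 15 (1.54%) with 5mC, with a median difference of 0.35. The 240 sequences with cytosine before the half-site had rises at 2.92% and falls at 15.4%, and all tested 8-mers at 2.25% and 6.21%. With 5hmC the 8-mers with another base rose at 20 (2.06%) and fell at 18 (1.85%), with a median of 0.32. The 240 sequences then had rises at 0.833% and falls at 14.2%, and all tested 8-mers at 1.12% and 6.78%. For ATF1 with 5mC the half-site after another base had rises at 0.925% and falls at 0.617%, where the 240 sequences had 0.833% and 7.50%. With 5hmC it had 0.103% and 0.822%, where the 240 sequences had 0 rises and falls at 7.92%. Of the CREB1 falls among the 240 sequences, 36 of 37 with 5mC and 29 of 34 with 5hmC were in ACGCAA. The lists also differed in level on unmodified DNA. On the CREB1 C arrays the median z-score was -0.29 and -0.13 after another base, and 0.53 and 0.89 over the 240 sequences. A z-score of 4 or more was reached by 0.925% and 2.06% after another base, and by 8.75% and 13.3% of the 240 sequences. The difference between these lists was not tested.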

How the data were processed

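Binding of 3 proteins to 3 kinds of DNA was read on 18 arrays, 9 groups of 2. The probe intensity is the median signal on a linear scale with a local background, per the file headers. The design has 40330 probes, each with 35 variable bases. The authors computed and deposited a score per 8-mer and array, named a z-score by them, by steps not given in the sources used here. All 18 z-score columns were matched to samples by the name in the sample description.

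The 240 sequences, their lists and the naming rule were chosen with earlier results of these data known. Of 65530 8-mers, 409 absent from every probe's synthesized strand were dropped. The z-scores of the other 65121 were fitted in limma 3.58.1 (R 4.3.3) over all 18 arrays, with 1 mean per group, empirical Bayes moderation with a trend (9 residual and 10.7 prior degrees of freedom), two-sided p-values and a Benjamini-Hochberg threshold of 0.05 across the whole table. Protein differences were interaction contrasts. Strand differences were fitted in the same way on the z-score of an 8-mer minus that of its reverse complement, over 32225 pairs. The code was tested on simulated data. Python 3.11.15, numpy 2.4.6 and pandas 2.3.3 did the other steps.

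Sequences were named by rule: the highest members of each group, the largest rises and falls past the test without overlap between arrays, the reverse complements of the highest modified-strand sites, and the largest strand differences. Those outside the rule were acgTTGCG, tatTTGCG, gTTGCGcg, TTGCGcgt, gcTTGCGa, TTGCGatg, tTTGCGat and ggaTTGCG, named because they complete a small count. The alternatives were the replicate number as a block, no trend in the moderation, fitting the protein's own arrays, quantile normalization, log2 of the background-subtracted probe signal in place of the deposited z-score (also without probes that hold CRE-like words), and leaving out each array. With 2 arrays per group, precision is limited by their number.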

Additional observations from a re-analysis of the deposited data

How the results depend on the processing

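Counts are of the 240 sequences, or pairs, called in limma. Calls over all tested 8-mers changed with the setting as well. For CREB1 5mC against C, 1462 of 65121 rose and 4041 fell as reported. With quantile normalization 870 rose and 1167 fell, and with log2 signal 1277 and 3094. On log2 signal without probes holding CRE-like words, 783 of 63390 rose and 754 fell. With only a protein's own arrays ATF1 5mC had 1888 rises and 3236 falls, against 777 and 1341. With the z-scores quantile normalized the counts were 10 for CREB1 5mC against C (44 as reported), 12 for 5hmC against C (36) and 1 for 5hmC against 5mC (4), 7 for ATF1 5hmC against 5mC (1), and, for strand differences, 23 for CREB1 5hmC (8), 157 for ATF1 5mC (69) and 11 for ATF1 5hmC (0). The falls in ACGCAA were then 8 for CREB1 5mC (36) and 11 for CREB1 5hmC (29). With only a protein's own arrays they were 1 for CREB1 5hmC against 5mC, 37 for ATF1 5mC (20), 9 for ATF1 5hmC against 5mC and 0 for JUND 5mC (1), with strand differences of 130 for CREB1 5mC (200), 0 for CREB1 5hmC, 174 for ATF1 5mC and 11 for ATF1 5hmC, and 27 falls in ACGCAA for ATF1 5mC (16). Without a trend they were 1 for CREB1 5hmC against 5mC, 2 for ATF1 5hmC against 5mC, 0 for JUND 5mC, and 1 for CREB1 against ATF1 with either modification (0). With log2 signal they were 2 for CREB1 5hmC against 5mC, 0 for JUND 5mC, and strand differences of 128 for CREB1 5mC and 17 for ATF1 5mC. The next setting changes 2 choices, log2 signal and the removal of probes holding CRE-like words, was chosen after seeing the data and leaves 239 of the sequences. Log2 signal alone gave 34 and 30 for CREB1 5mC and 5hmC, 19 and 20 for ATF1, and 8 strand differences for CREB1 5hmC. Without those probes they were 21 and 15 for CREB1 5mC and 5hmC, 2 for CREB1 5hmC against 5mC, 5 and 4 for ATF1 5mC and 5hmC, 0 for JUND 5mC, and strand differences of 97 for CREB1 5mC, 1 for CREB1 5hmC and 2 for ATF1 5mC, with falls in ACGCAA of 18 and 15 for CREB1 5mC and 5hmC and 5 and 4 for ATF1 5mC and 5hmC. The labels do not say that replicate numbers pair the arrays, and the correlations of deviations were mixed, from -0.163 to 0.636 over 9 comparisons. Those of 5hmC with C were 0.202 for CREB1, 0.216 for ATF1 and 0.636 for JUND, and for no protein were all 3 over 0.1. With the replicate block the counts were 45 and 40 for CREB1 5mC and 5hmC, 25 and 20 for ATF1 5mC and 5hmC, 4 for ATF1 5hmC against 5mC, and strand differences of 206 and 12 for CREB1 and 80 for ATF1 5mC. Leaving out an array gave 29 to 36 for CREB1 5mC, 22 to 38 for CREB1 5hmC, 0 to 4 for CREB1 5hmC against 5mC, 0 to 5 for ATF1 5mC, 2 to 6 for ATF1 5hmC, 0 to 1 for ATF1 5hmC against 5mC, 0 to 2 for JUND 5mC, 0 to 1 for JUND 5hmC and 0 to 10 for CREB1 against ATF1 with either modification. It gave strand differences of 160 to 209 for CREB1 5mC, 0 to 4 for CREB1 5hmC and 11 to 25 for ATF1 5mC, and falls in ACGCAA of 24 to 32 and 21 to 29 for CREB1 5mC and 5hmC and 0 to 5 and 2 to 6 for ATF1 5mC and 5hmC. Where an array is left out, its lone partner is assumed to vary like the other groups. The cause of these differences was not tested. Of 47 calls at named sequences, 39 were lost under at least 1 of the 6 other settings, 32 without at least 1 array, and 0 reversed direction. The 6 lost under none were CREB1 5mC and 5hmC at aTTGCGta, taTTGCGt and TTGCGtag. Kept under all 6 other settings, though lost without an array, were CREB1 5mC at taTTGCGa and ATF1 5hmC at TTGCGtag.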
